A study of Mus musculus with 6 samples.

Results

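The genes described here build the MHC class I antigen presentation pathway: 5 class I heavy chain genes (H2-K1, H2-D1, H2-T23, H2-M3 and H2-Q7), the light chain gene B2m and 3 peptide loading genes (Tap1, Tap2 and Tapbp). They were chosen by name, and a probe set was taken where the platform annotation gave it one of these symbols. This gave 8 probe sets, 1 for each of 8 of the 9 genes, among 22206 probe sets in all. No probe set carried the symbol H2-Q7, which was not analysed here. RNA was measured in mouse HoxB8 neutrophil progenitors, a line of myeloid progenitors kept immature by the transcription factor Hoxb8. The cells had spent 1 day in differentiation medium with stem cell factor supernatant. In one group the cells expressed the leukaemia-associated K313 form of C/EBPα (K313, 3 arrays), and in the other they expressed wild-type C/EBPα (WT, 3 arrays). Per the title of the series, its question was the activity of this mutant; C/EBPα drives granulocyte formation. The labels do not say how the forms were introduced, whether each group is 1 clone, whether the endogenous gene remained or whether the arrays came from separate cultures, so p-values measure the spread between these arrays, which may be technical.

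Class I molecules show peptides from inside the cell to CD8 T cells. The peptides are cut by the proteasome, carried into the endoplasmic reticulum by the transporter TAP, a dimer of Tap1 and Tap2, and fitted into a heavy chain paired with beta-2 microglobulin (B2m) while tapasin (Tapbp) holds the complex together. Almost all nucleated cells carry class I, and interferons raise it through STAT and IRF factors and the coactivator Nlrc5. H2-K1 and H2-D1 are classical heavy chains, whereas H2-T23 (Qa-1) presents leader peptides to NK cell receptors and H2-M3 binds formylated peptides such as those of bacteria.

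Promoter sequences of class I genes are shown here, to show how alike the classical pair is and how H2-M3 departs from it. RefSeq promoter windows (build GRCm38.p6) were found for 8 of the 9 genes, with none used for Tap2. The 180 bases before the annotated start are printed 5′ to 3′ for 3 heavy chain genes on the list, for the light chain B2m, for Tap1 and for H2-Q4, a close relative whose level differed between the groups. Capitals mark matches on either strand to the kB element GGGATTCCC, the interferon elements TTTCACTT and GAAANNGAA, the X2 box TGACG and the Y box ATTGG. The Y box and the X2 box are bound by NF-Y and by CREB or ATF factors. H2-K1 is at chr17:34000348-34000527, minus strand, H2-D1 at chr17:35262914-35263093, plus strand, H2-M3 at chr17:37270054-37270233, plus strand, B2m at chr2:122147507-122147686, plus strand, Tap1 at chr17:34187376-34187555, plus strand, and H2-Q4 at chr17:35379437-35379616, plus strand.
H2-K1: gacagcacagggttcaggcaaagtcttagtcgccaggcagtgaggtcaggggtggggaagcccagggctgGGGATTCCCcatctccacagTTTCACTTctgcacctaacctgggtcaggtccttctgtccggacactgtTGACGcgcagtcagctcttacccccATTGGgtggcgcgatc
H2-D1: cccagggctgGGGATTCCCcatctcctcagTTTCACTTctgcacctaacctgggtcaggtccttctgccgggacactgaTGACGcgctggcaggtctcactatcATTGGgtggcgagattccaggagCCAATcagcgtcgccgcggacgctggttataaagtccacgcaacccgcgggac
H2-M3: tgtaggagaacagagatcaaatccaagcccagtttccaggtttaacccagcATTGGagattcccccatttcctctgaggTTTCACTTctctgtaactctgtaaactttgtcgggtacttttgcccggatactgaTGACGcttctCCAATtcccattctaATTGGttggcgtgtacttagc
B2m: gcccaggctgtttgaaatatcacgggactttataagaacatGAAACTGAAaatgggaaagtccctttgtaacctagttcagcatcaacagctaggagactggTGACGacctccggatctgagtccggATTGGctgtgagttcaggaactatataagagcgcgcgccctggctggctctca
Tap1: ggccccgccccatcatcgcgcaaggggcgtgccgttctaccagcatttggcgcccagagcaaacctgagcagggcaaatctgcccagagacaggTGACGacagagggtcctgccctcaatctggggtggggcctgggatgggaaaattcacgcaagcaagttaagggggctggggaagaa
H2-Q4: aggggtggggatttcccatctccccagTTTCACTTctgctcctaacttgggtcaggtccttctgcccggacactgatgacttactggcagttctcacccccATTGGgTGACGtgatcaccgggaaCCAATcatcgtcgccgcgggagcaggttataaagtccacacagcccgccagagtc

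The H2-K1 and H2-D1 windows held the kB element, TTTCACTT, the X2 box and the Y box in the same order. Their full 250-base windows shared an identical run of 47 bases, while each shared at most 11 identical bases in a run with H2-M3. The kB letters lay in 3 of the 8 windows (H2-K1, H2-D1 and H2-Q7), against 84 of 27025 RefSeq windows of 250 bases (0.311%). TTTCACTT lay in 4 of the 8 (the same genes and H2-M3), against 1.44% of all windows, and GAAANNGAA in 2 (B2m and H2-T23), against 7.16%. The X2 letters lay in 6 of the 8, against 17.9% of all windows, and the Y letters in each of the 8, against 34.5%. The C/EBP element TTGCNNAA, searched because C/EBPα is the factor that differed, lay in 1 of the 8 (H2-T23, in its 250-base window), against 9.55% of all windows. Both strands were searched, and matches may overlap, as TTTCACTT and GAAANNGAA did in the window of H2-T22. Tap1 and the proteasome gene Psmb9 stand head to head, and 225 of the 250 bases before each start are the same bases on opposite strands. A match describes letters in these windows and not a bound site.

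All levels below are deposited log2 expression values made with RMA, a background correction, normalization and summary over probes, and differences are K313 minus WT on that scale. A change was called at an adjusted p of at most 0.05 in limma, with Benjamini-Hochberg adjustment over all 22206 probe sets. Array medians lay between 5.06 and 5.13 in K313 and between 5.01 and 5.06 in WT. A mean of at most 5 is called near background here, since no detection calls were used. Hoxb8 itself was lower in K313 by 4.64 on the log2 scale (adjusted p = 1.15e-06), and Cebpa differed by -0.51 ± 0.21 (adjusted p = 0.212). The share of Hoxb8 in the class I values cannot be told apart from the share of the mutant. WT replicate 3 correlated with the K313 arrays at 0.987 to 0.989, and WT replicates 1 and 2 at 0.983 to 0.986. Of 13 neutrophil progenitor markers, all had a mean above 5 in at least 1 group, and their summed linear level on the log2 scale ran from 19.67 to 19.75 in K313 and from 19.38 to 19.46 in WT. In limma 4 were higher in K313 and 1 lower, against 3.77% and 3.97% of all probe sets. The granule proteases Elane (3.29 ± 0.28), Ctsg (1.75 ± 0.16) and Prtn3 (0.94 ± 0.17) and the membrane protein gene Ms4a3 (0.81 ± 0.18) rose, and the G-CSF receptor Csf3r (-1.03 ± 0.22) fell. The call of Ms4a3 was lost without K313 replicate 1 (adjusted p = 0.0546) or 3 (0.0799) and without WT replicate 1 (0.0558) or 3 (0.0759), and that of Csf3r without K313 replicate 2 (0.0613). Mpo, another granule enzyme, differed by 0.00 ± 0.15. Its means of 18.42 in K313 and 18.41 in WT stood near the highest array value (18.59), where differences may be compressed. The part of these marker differences in the class I values was not tested.

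The classical heavy chains were well measured in both groups and did not pass the test. H2-K1 read 14.80, 14.98 and 14.71 in K313 arrays, against 15.21, 14.56 and 14.85 in WT arrays. The K313 values lay inside the WT range. The difference was -0.04 ± 0.19 (SE, n = 3 per group; limma adjusted p = 0.949), and its 95% interval ran from 0.726-fold to 1.30-fold. H2-D1 read 11.52, 11.83 and 12.07 in K313 arrays, against 11.69, 11.38 and 11.75 in WT arrays, and the groups overlapped. Its difference was 0.20 ± 0.19 (adjusted p = 0.677), with an interval from 0.864-fold to 1.53-fold. A change of 2-fold lies outside both intervals, which are not adjusted for the number of probe sets. The H2 heavy chain genes are near copies of one another and the probe sequences were not used here, so values of close relatives are uncertain.

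B2m, the light chain needed by every class I molecule, read 17.62, 17.54 and 17.64 in K313 arrays, against 17.95, 17.81 and 17.84 in WT arrays. All K313 arrays lay below all WT arrays, by a small margin. The difference was -0.27 ± 0.15 (adjusted p = 0.400), with an interval from 0.664-fold to 1.04-fold. Its values stood near the top of the measured range of the arrays, 2.21 to 18.59, where differences may be compressed.

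Of the non-classical heavy chains H2-M3 and H2-T23, H2-M3 was higher in K313 and H2-T23 did not pass. H2-M3 read 7.78, 7.83 and 8.16 in K313 arrays, against 7.44, 7.29 and 7.23 in WT arrays. Every K313 array lay above every WT array. The mean was 7.92 ± 0.21 in K313 and 7.32 ± 0.11 in WT (SD, n = 3 each), a rise of 0.60 ± 0.17 (SE) or 1.52-fold, with an interval from 1.18-fold to 1.96-fold. Its adjusted p of 0.04998 in limma stands at the threshold. The call was lost without any 1 of the 6 arrays: the difference then lay between 0.49 and 0.68, and the adjusted p was 0.0702 and 0.106 without K313 replicates 1 and 2, 0.185 without K313 replicate 3, and 0.0707, 0.115 and 0.151 without WT replicates 1, 2 and 3. H2-T23 read 8.22, 8.44 and 8.27 in K313 arrays, against 8.46, 8.52 and 8.74 in WT arrays. All K313 arrays lay below all WT arrays, but the difference of -0.26 ± 0.16 did not pass (adjusted p = 0.452; interval 0.655-fold to 1.06-fold).

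The genes whose 6 centred values lay nearest to those of H2-M3 were Ethe1, a mitochondrial sulfur dioxygenase, Ccdc120 and Dsel, at root mean square distances of 0.063, 0.068 and 0.070 log2 units over 6 arrays. Their differences were 0.54 ± 0.17 for Ethe1 (adjusted p = 0.0985), 0.58 ± 0.16 for Ccdc120 (0.0507) and 0.72 ± 0.16 for Dsel (0.0172). Ccdc120 stood near background, at 4.64 in K313 and 4.06 in WT. Dsel was near background in WT (4.29) and at that cutoff in K313 (5.00). With so many profiles of 6 values some lie close to any other, so the likeness is a description.

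Neither transporter gene passed the test. Tap2 read 10.54, 10.33 and 10.66 in K313 arrays, against 9.99, 9.69 and 10.17 in WT arrays. The lowest K313 array stood above the highest WT array. The difference was 0.56 ± 0.18 (adjusted p = 0.0930), with an interval from 1.13-fold to 1.93-fold before adjustment. Tap1 read 11.43, 11.85 and 11.80 in K313 arrays, against 11.56, 11.80 and 11.85 in WT arrays. These are almost the same values, and the difference was -0.04 ± 0.17 (adjusted p = 0.945; interval 0.745-fold to 1.26-fold).

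Tapasin, Tapbp, which bridges TAP to the empty heavy chain, read 11.93, 11.81 and 11.43 in K313 arrays, against 11.85, 11.64 and 12.20 in WT arrays. The groups overlapped, and the difference was -0.17 ± 0.20 (adjusted p = 0.746; interval 0.656-fold to 1.20-fold). The plot of levels on each array shows the 8 genes side by side.

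**Figure D1:**
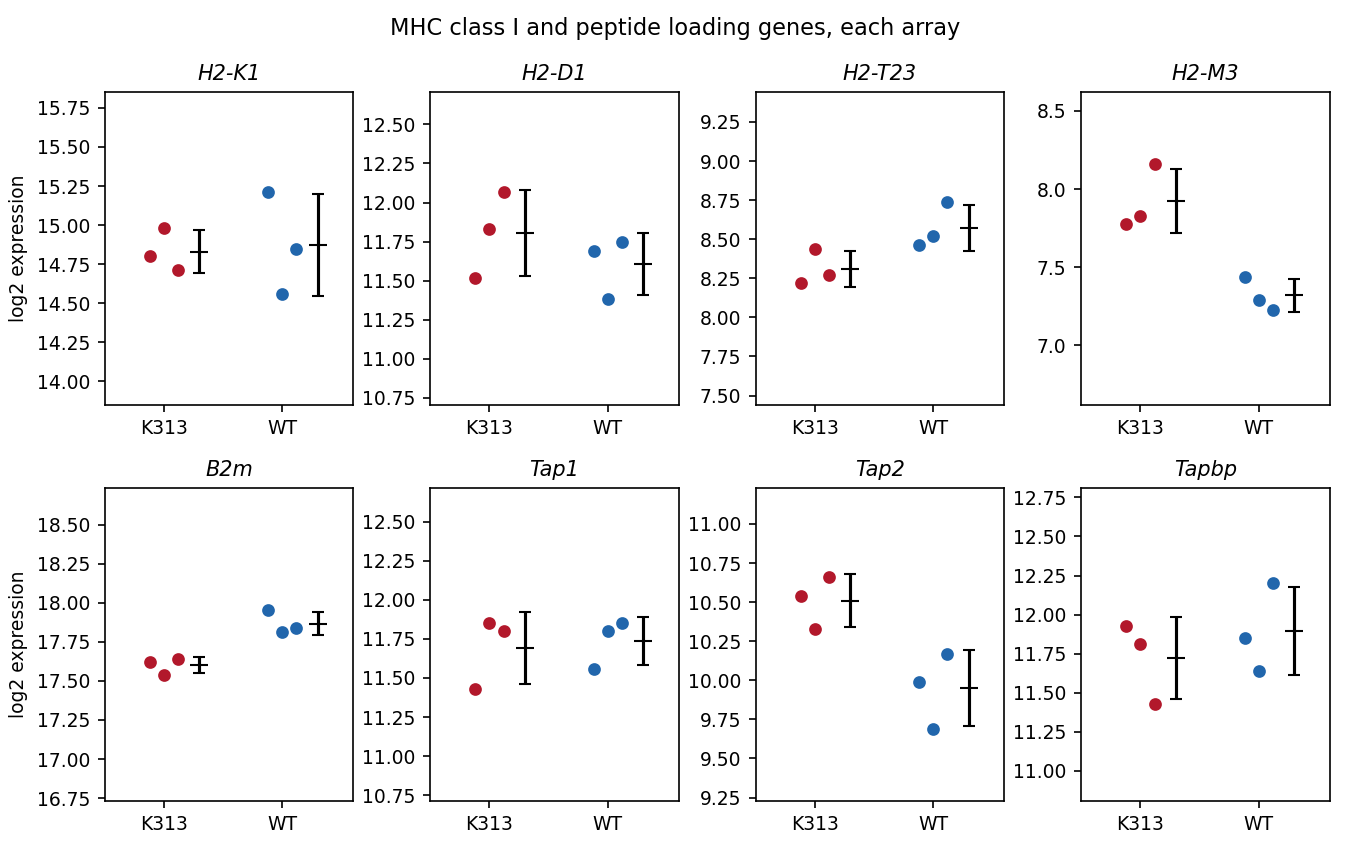
Deposited log2 expression (vertical axis, each panel spanning the same height) of the 8 class I and peptide loading genes on 3 K313 and 3 WT arrays. Points are arrays, and the bar beside them is the mean with SD. H2-M3 and Tap2 lie higher on every K313 array than on any WT array, H2-T23 and B2m lie lower, and the groups overlap for the other genes.

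Ratios within each array were compared for 4 pairs of genes of this pathway, picked after the values were seen. The log2 ratio of Tap2 to Tap1 was -1.18 ± 0.32 in K313 and -1.79 ± 0.29 in WT (SD, n = 3 each), a difference of 0.60. The exact two-sided permutation p was 0.1, the smallest that 3 arrays against 3 allow (adjusted p = 0.2 over 4 pairs). The ratio of H2-D1 to H2-K1 differed by 0.24 (exact p = 0.5), and that of B2m to H2-K1 by -0.22 (exact p = 0.4). The ratio of the immunoproteasome subunits Psmb10 to Psmb8 was -1.39 ± 0.16 in K313 and -2.66 ± 0.45 in WT, a difference of 1.26 (exact permutation p = 0.1). None of the 4 can reach 0.05 in this design.

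Across the 8 genes, 1 was higher and 0 were lower in limma, where 7.75% of all probe sets were called, 3.77% higher and 3.97% lower. At an unadjusted p under 0.05, 2 of the 8 passed (H2-M3 and Tap2), against 17.8% of all probe sets. The groups did not overlap in 4 of the 8, 2 with K313 above WT and 2 with K313 below, against 21.9% of all probe sets (2445 above and 2427 below). The median difference was -0.04, against 0.02 over all probe sets. The median size of the difference was 0.23, against 0.18 over all probe sets and 0.23 over the 11248 with a mean over 5. Of those 11248, 694 were called higher and 807 lower, and 3068 had an unadjusted p under 0.05 in limma. Their groups did not overlap in 1570 with K313 above WT and 1859 with K313 below. Shares over all probe sets, here and for the other lists, include 10633 with both means at most 5. Array-to-array SDs of the 8 genes ran from 0.05 to 0.28 in K313 and from 0.07 to 0.33 in WT.

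The other H2 heavy chains of class I include the Qa, T and M region genes, many of which act outside classical presentation or in other tissues. Of 28 listed, 20 were measured: 3 were higher in K313, 0 lower and 17 not called, with a median difference of 0.10. The background share was again 3.77% for higher calls. 13 of the 20 had means of at most 5 in both groups, among them all measured H2-M10 genes and H2-T3.

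H2-Q4, a Qa region heavy chain gene, read 7.18, 7.06 and 7.57 in K313 arrays, against 5.76, 5.57 and 6.48 in WT arrays. Every K313 array lay above every WT array, and WT replicate 3 was the highest of the WT arrays. It rose by 1.33 ± 0.24 or 2.52-fold (adjusted p = 0.00471), and by 1.61 without WT replicate 3. H2-Q5 read 6.03, 5.55 and 6.05 in K313 arrays, against 4.60, 4.47 and 4.99 in WT arrays, where its WT mean stood near background. It rose by 1.19 ± 0.20 (adjusted p = 0.00280). H2-T10 read 8.85, 8.78 and 8.91 in K313 arrays, against 8.25, 7.66 and 8.39 in WT arrays. It rose by 0.75 ± 0.20 (adjusted p = 0.0441). Its call was lost without any 1 array other than WT replicate 3 (adjusted p = 0.112, 0.109 and 0.144 without K313 replicates 1, 2 and 3, and 0.0640 and 0.111 without WT replicates 1 and 2). RefSeq lists H2-Q5 and H2-T10 as transcribed pseudogenes in the reference strain. The promoter of H2-Q4, printed above, shared identical runs of 30 bases with H2-K1 and 21 bases with H2-D1, whose levels did not pass. Its 250-base window lacked the exact kB letters GGGATTCCC but held the near match gggatttccc before TTTCACTT. The window of H2-M3 also lacked the exact letters and held the near match gagattccc before TTTCACTT. Variants of the kB letters were not searched.

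Other measured relatives at levels above background were not called. H2-T22, a ligand of gamma delta T cells, differed by 0.03 ± 0.19 (adjusted p = 0.970), H2-Q2 by 0.01 ± 0.20 (adjusted p = 0.992), H2-Q1 by 0.07 ± 0.21 (adjusted p = 0.917) and H2-T24 by 0.14 ± 0.20 (adjusted p = 0.812). H2-M10.2, near background, differed by 0.22 ± 0.16 (adjusted p = 0.561).

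Among class I related molecules coded outside the H2 complex, Hfe and Mr1 were higher in K313. Of 9 measured, 2 were higher in K313, 1 lower and 6 not called (background 3.77% and 3.97%), with a median of -0.01. Hfe, which pairs with B2m and controls iron uptake, read 9.35, 8.89 and 9.12 in K313 arrays, against 7.84, 7.18 and 7.72 in WT arrays. The groups were well apart, and Hfe rose by 1.54 ± 0.21 or 2.91-fold (adjusted p = 0.000569). Mr1, which presents vitamin B metabolites to MAIT cells, read 8.60, 7.21 and 8.36 in K313 arrays, against 5.72, 5.02 and 6.72 in WT arrays. Its arrays were spread widely within each group but did not overlap. It rose by 2.24 ± 0.42 or 4.71-fold (adjusted p = 0.00641), and the rise lay between 1.84 and 2.69 when 1 array was left out.

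Cd1d2, a lipid-presenting molecule, read 5.71, 5.55 and 5.41 in K313 arrays, against 6.35, 6.28 and 5.94 in WT arrays. It fell by 0.63 on the log2 scale (SE 0.17, adjusted p = 0.0471). Its call was lost without any 1 array other than WT replicate 3 (adjusted p = 0.0659, 0.140 and 0.171 without K313 replicates 1, 2 and 3, and 0.146 and 0.125 without WT replicates 1 and 2). Cd1d1, the main lipid-presenting molecule for NKT cells in the mouse, differed by -0.34 ± 0.16 (adjusted p = 0.301). The neonatal Fc receptor chain Fcgrt differed by -0.65 ± 0.19 (adjusted p = 0.0691), with both means near background; it passed as lower with quantile normalization (0.0398) and with a common median (0.0315).

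Partners of peptide loading and trimming were well expressed and none passed in limma: 0 of 13 measured were higher and 0 lower, and 2 had an unadjusted p under 0.05, against 17.8% of all probe sets. The median difference was 0.24, with 10 positive and 3 negative. Erap1, the aminopeptidase that trims peptides in the endoplasmic reticulum, read 12.53, 12.36 and 12.41 in K313 arrays, against 12.02, 11.54 and 12.03 in WT arrays. All K313 arrays lay above all WT arrays, and the difference was 0.57 ± 0.18 (adjusted p = 0.0862). Ganab, the glucosidase that prepares heavy chains for calnexin and calreticulin, differed by 0.72 ± 0.22 (adjusted p = 0.0881). Pdia3, the thiol oxidoreductase of the loading complex, differed by -0.31 ± 0.15 (adjusted p = 0.328), and Uggt1, which checks glycoprotein folding, by 0.33 ± 0.18 (adjusted p = 0.399). The chaperones Calr (-0.07 ± 0.14) and Canx (0.01 ± 0.15) stood at 18.06 and 15.51 in K313, against 18.13 and 15.50 in WT. Calr lay near the top of the measured range of the arrays, where differences may be compressed.

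The immunoproteasome replaces the 3 catalytic subunits of the standard proteasome and favours peptides that fit class I. Of 7 genes for its subunits, its activator and its assembly factor, 1 was higher in K313 and 0 lower (3.77% and 3.97% over all probe sets), with a median of 0.00. An unadjusted p under 0.05 was found for 2, against 17.8% of all probe sets. Psmb10 read 9.58, 9.93 and 9.99 in K313 arrays, against 9.15, 9.0 and 8.43 in WT arrays. It rose by 0.97 ± 0.21 or 1.96-fold (adjusted p = 0.0145), with no overlap of the groups. The call was lost without K313 replicate 2 (adjusted p = 0.0666) and without K313 replicate 3 (adjusted p = 0.0710). The other inducible catalytic subunits lie beside the TAP genes in the MHC and did not pass: Psmb8 differed by -0.29 ± 0.18 (adjusted p = 0.483) and Psmb9 by 0.00 ± 0.17. Psme2, a subunit of the activator PA28, differed by 0.43 ± 0.18 (adjusted p = 0.243). Pomp, the assembly factor, differed by -0.04 ± 0.22 (adjusted p = 0.956). The standard catalytic subunits Psmb6 (0.17 ± 0.16) and Psmb7 (0.10 ± 0.18) also were not called, 0 of 2 with limma and 0 of 2 at an unadjusted p under 0.05.

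**Figure D2:**
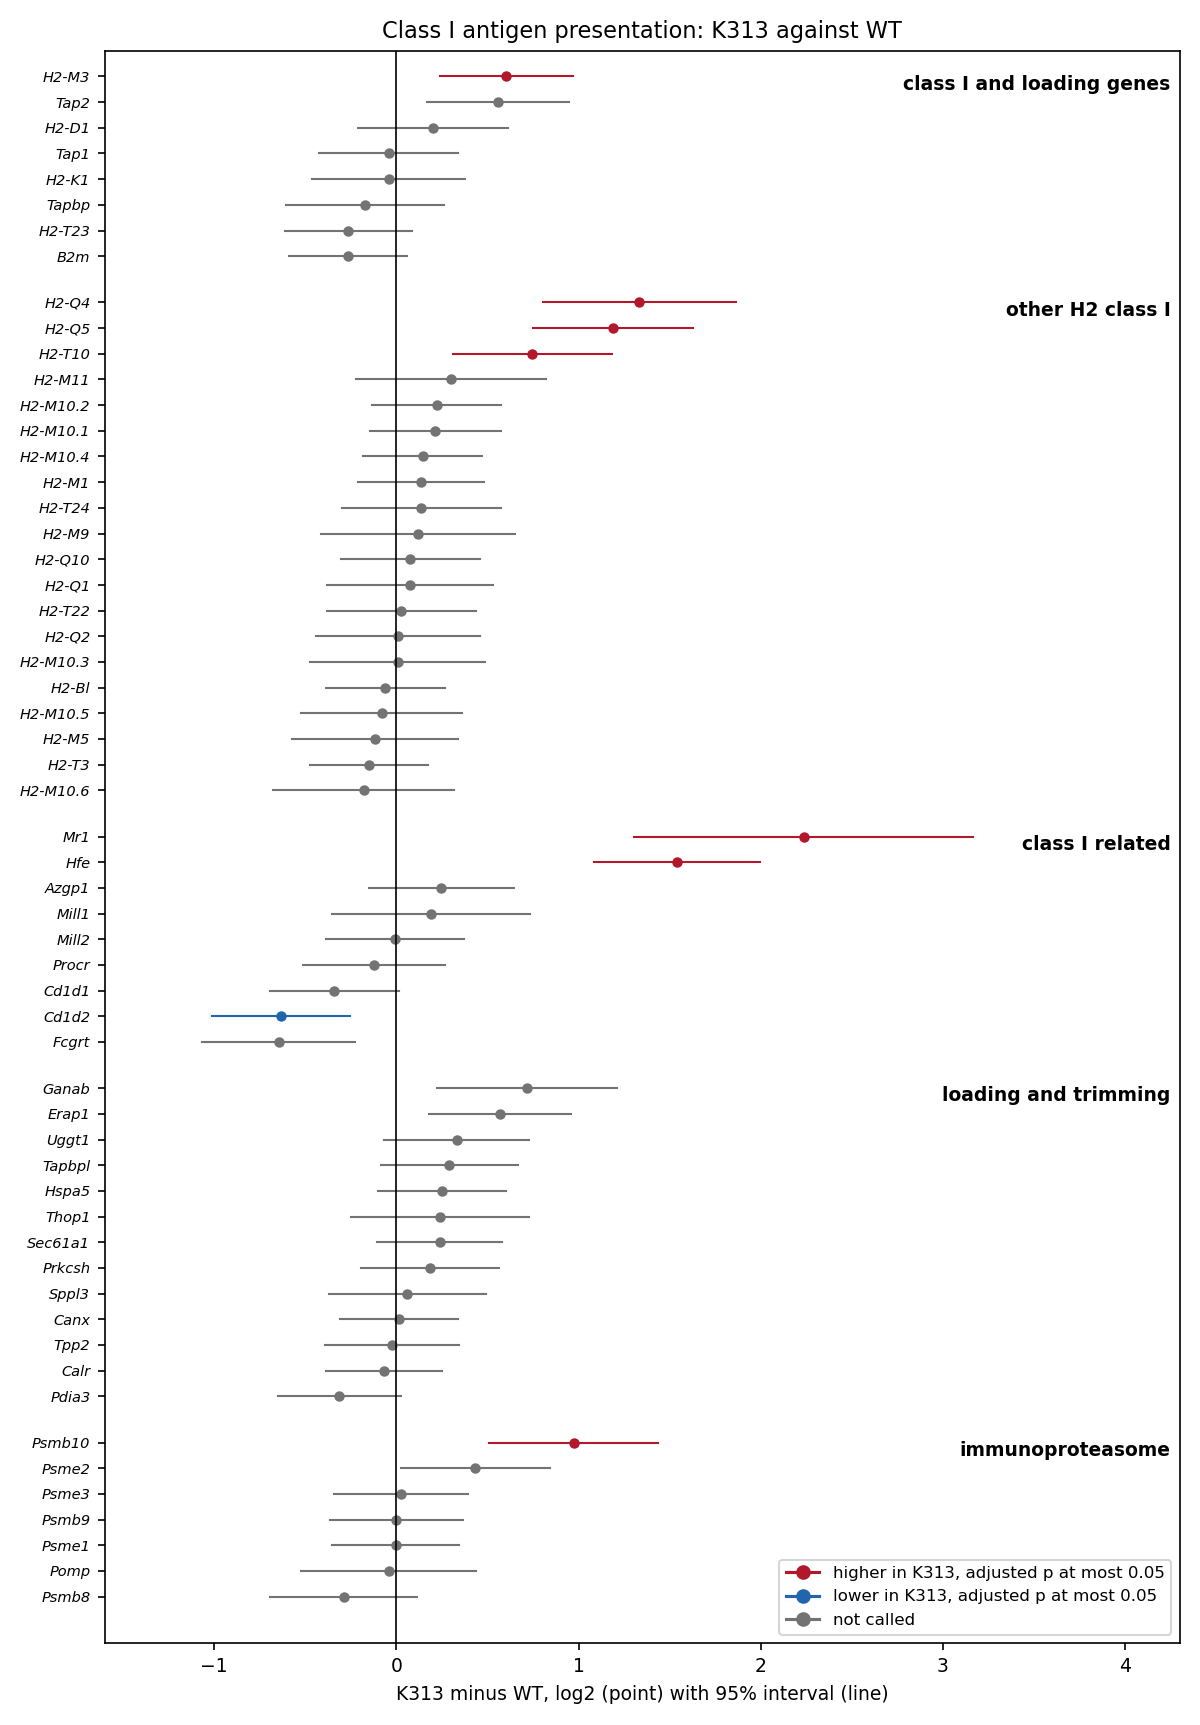
Difference K313 minus WT on the log2 scale (horizontal axis) for the class I and peptide loading genes and 4 lists of relatives and partners. Points are estimates, lines are 95% intervals before adjustment, and colour marks calls. H2-M3 is called among the 8 genes at the top, and Mr1, Hfe, H2-Q4, H2-Q5, H2-T10 and Psmb10 lie to the right of 0 with calls.

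Transcription factors known to act on class I genes showed 0 higher and 0 lower of 17 measured in limma, with 3 at an unadjusted p under 0.05 (17.8% over all probe sets) and a median of -0.07. Irf8, a myeloid IRF factor, differed by 0.58 ± 0.17 (adjusted p = 0.0716), Irf9, a subunit of the interferon-activated complex ISGF3, by 0.50 ± 0.16 (adjusted p = 0.0988), and its partner Stat2 by -0.44 ± 0.23 (adjusted p = 0.368). Ezh2, the methyltransferase of the repressive complex PRC2, differed by -0.40 ± 0.16 (adjusted p = 0.191). Irf8 passed without K313 replicate 1 (adjusted p = 0.0397). Irf1, the IRF factor most tied to class I, differed by -0.05 ± 0.17 and Rfx5, which binds the X box, by -0.26 ± 0.19. Nlrc5 was not analysed here.

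Interferon receptors and their proximal signalling had 1 higher and 1 lower of 11 (3.77% and 3.97% over all probe sets). Ifngr1, the ligand-binding chain of the interferon-gamma receptor, rose by 0.85 ± 0.19 (adjusted p = 0.0182), with a mean of 14.08 ± 0.21 in K313 and 13.23 ± 0.29 in WT (SD, n = 3 each). Its call was lost without K313 replicate 1 (adjusted p = 0.0684), K313 replicate 3 (0.0835) or WT replicate 2 (0.0604). Usp18, an inhibitor of interferon receptor signalling that is itself induced by interferon, fell by 0.74 on the log2 scale (SE 0.15, adjusted p = 0.00790), with means of 4.55 in K313 and 5.29 in WT. Jak2 differed by -0.64 ± 0.19 (adjusted p = 0.0678) and passed without K313 replicate 1 (0.0443) or WT replicate 1 (0.0432). Jak1 differed by -0.30 ± 0.16 (adjusted p = 0.375).

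Genes that interferon-gamma induces together with class I rose in 3 of 12 and fell in 0 (3.77% and 3.97% over all probe sets), with a median of 0.09. Gbp7, a guanylate-binding protein, read 10.38, 10.02 and 9.70 in K313 arrays, against 6.80, 7.24 and 7.68 in WT arrays. It rose by 2.79 ± 0.24 or 6.93-fold (adjusted p = 2.2e-05). Its relative Gbp3 rose by 1.76 ± 0.30 (adjusted p = 0.00342) and the GTPase Tgtp2 by 1.74 ± 0.28 (adjusted p = 0.00217). Gbp3 stood near background in WT, and Tgtp2 in both groups, with means of 4.99 in K313 and 3.25 in WT. None of the other 9 passed: Irgm1 differed by -0.59 ± 0.22 (adjusted p = 0.164), while Cxcl9 (0.31 ± 0.20), Cxcl10 (0.09 ± 0.16) and Gbp2 (0.04 ± 0.19) stood near background in both groups. Irgm1 passed as lower without WT replicate 2 (adjusted p = 0.0479).

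**Figure D3:**
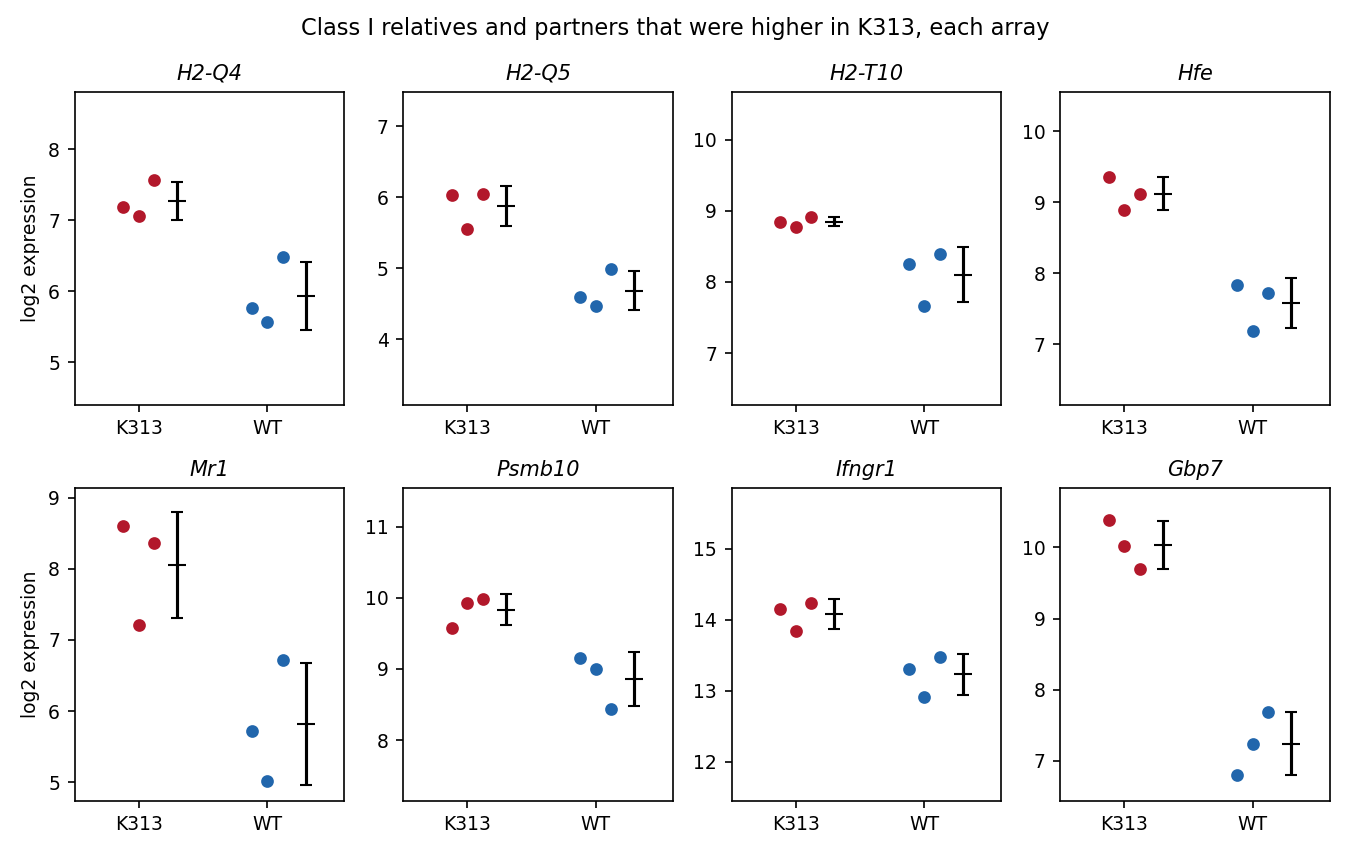
Deposited log2 expression (vertical axis, each panel spanning the same height) of 8 class I relatives and partners called higher in K313, on 3 K313 and 3 WT arrays. Points are arrays and the bar beside them is the mean with SD. In each panel all K313 arrays lie above all WT arrays, with the widest spread within groups in Mr1.

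Genes for surface turnover and cross-presentation had 1 higher and 0 lower of 10 in limma (3.77% and 3.97% over all probe sets), with 1 at an unadjusted p under 0.05 (17.8% over all probe sets). Tmem129, an endoplasmic reticulum ubiquitin ligase known from the virus-driven destruction of human class I, rose by 0.82 ± 0.22 (adjusted p = 0.0460). That call was lost without any 1 array other than WT replicate 3, with an adjusted p between 0.0515 and 0.187. Sel1l, a scaffold of the same degradation route, differed by 0.42 ± 0.25 (adjusted p = 0.442), Wdfy4, needed for cross-presentation in dendritic cells, by -0.29 ± 0.23 (adjusted p = 0.596), and the endosomal GTPase Rab22a by 0.20 ± 0.16 (adjusted p = 0.619).

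MHC class II genes, which share the MHC with class I but serve CD4 T cells, had 1 higher and 3 lower of 10 (3.77% and 3.97% over all probe sets). The loading and editing chains H2-DMb1 (-2.10 ± 0.18), H2-Oa (-1.29 ± 0.18) and H2-DMb2 (-0.63 ± 0.17) fell. H2-DMa rose (1.14 ± 0.22) from a WT mean near background (4.62). The peptide-binding chains H2-Aa (4.22 in K313, 4.33 in WT) and H2-Eb1 (3.50 in K313, 3.40 in WT) stood near background. H2-Ab1, another peptide-binding chain, stood above that cutoff at 5.56 in K313 and 5.48 in WT. It was not called (0.08 ± 0.20, limma adjusted p = 0.896). The H2-DMb2 call (adjusted p = 0.0438) was lost without any 1 array other than K313 replicate 3, with an adjusted p between 0.0596 and 0.185.

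The position of the class I genes was then read from RefSeq gene order, without coordinates. The 7 measured genes other than B2m lie on chromosome 17 among 168 protein-coding genes from Tapbp to H2-M3, and B2m lies on chromosome 2. Of the 152 other protein-coding genes measured in that stretch, 6 were higher and 10 lower, against background shares of 3.77% and 3.97%, and their median difference was 0.05. The pseudogenes H2-Q5 and H2-T10, both called higher in K313, are not in these counts. Direct protein-coding neighbours of the class I genes were not called. H2-K1 stands between Vps52 (0.20 ± 0.19) and Ring1 (0.34 ± 0.23). H2-D1 stands between Atp6v1g2 (-0.57 ± 0.18, adjusted p = 0.0939, the nearest measured gene) and H2-Q1. H2-T23 lies between H2-T24 and H2-T22, and H2-M3 between the odorant receptor genes Olfr98 (-0.02 ± 0.16) and Olfr99 (-0.02 ± 0.19), both near background. Tapbp stands between Zbtb22 (-0.21 ± 0.22) and Rgl2 (-0.43 ± 0.22), and Tap2 between Psmb8 and the class II gene H2-Ob (-0.61 ± 0.17, adjusted p = 0.0511). On chromosome 2, B2m lies between Patl2 (-0.12 ± 0.16) and Trim69 (0.01 ± 0.16), both near background.

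**Figure D4:**
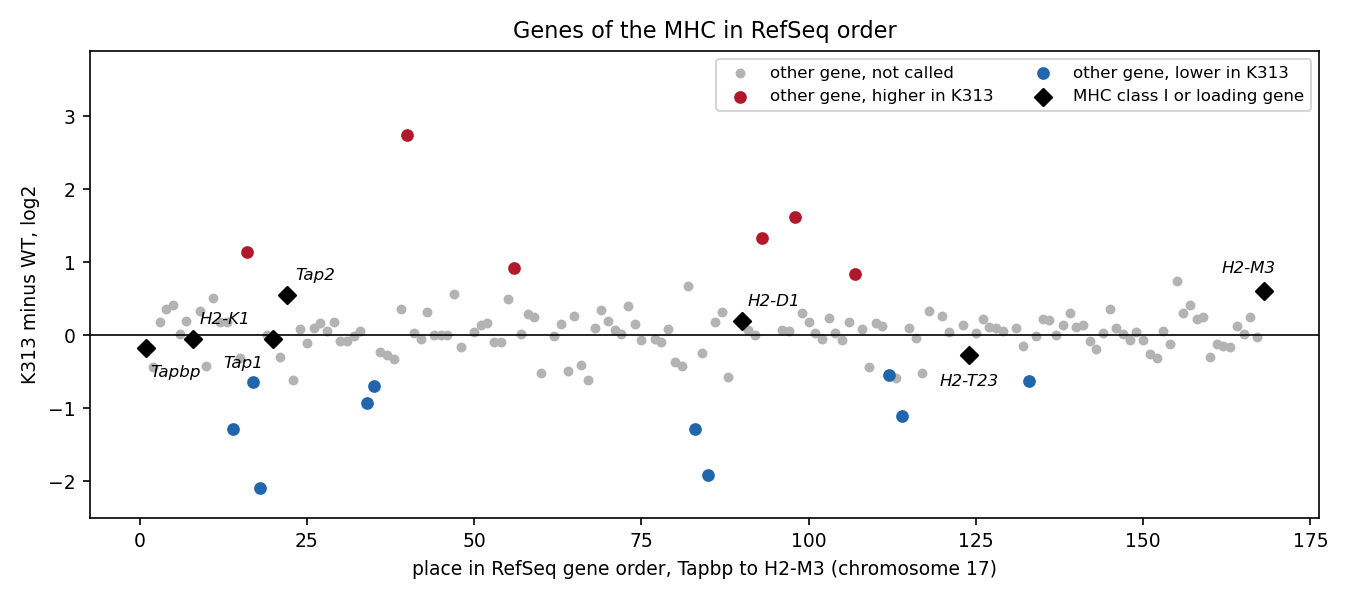
Difference K313 minus WT on the log2 scale (vertical axis) of the measured protein-coding genes from Tapbp to H2-M3, by their place in RefSeq gene order on chromosome 17 (horizontal axis, no distances). The pseudogenes H2-Q5 and H2-T10 are not shown. Black diamonds are class I and peptide loading genes, and coloured points are other genes that were called. The diamonds lie between -0.26 and 0.60, while called genes elsewhere in the stretch reach -2.10 and 2.75.

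Markers of other cell types were read because class I differs between cell types. The summed linear level of a list is given on the log2 scale, and over all probe sets 3.77% were called higher and 3.97% lower. T and NK cell markers ran from 7.63 to 7.98 in K313 and from 7.58 to 7.94 in WT, with 8 of 10 at a mean of at most 5 in both groups, 1 higher and 1 lower. Dendritic cell markers ran from 8.05 to 8.3 in K313 and from 8.12 to 8.24 in WT (5 of 9 near background, 1 lower), and macrophage markers from 9.27 to 9.42 in K313 and from 9.51 to 9.85 in WT (5 of 8 near background, 1 lower). B cell markers ran from 7.05 to 7.3 in K313 and from 9.4 to 10.08 in WT, with Cd79b and Cd79a lower and 4 of 6 near background. Basophil and mast cell markers ran from 17.55 to 17.8 in K313 and from 18.22 to 18.37 in WT, with 5 of 10 lower and 1 higher. The 1 higher was Prss34, by 3.98 ± 0.21 (adjusted p = 1.16e-06 in limma), the largest change of this list, which the sum does not show. Erythroid markers ran from 7.44 to 8.06 in K313 and from 7.37 to 7.62 in WT, with 0 of 4 called in limma and 3 at an unadjusted p under 0.05. Stromal and endothelial markers ran from 12.95 to 13.37 in K313 and from 9.99 to 11.03 in WT, with 6 of 7 near background and Pecam1 higher by 2.62. In bulk RNA, fewer cells of a type and less RNA per cell cannot be told apart, and the part of these lists in the class I values was not tested.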

How the data were processed

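Total RNA was hybridised to Affymetrix Mouse Clariom S arrays, 3 K313 and 3 WT, per the labels. The authors deposited log2 values made with RMA and the Transcriptome Analysis Console, per the submitters' processing notes; versions and the build of the array design are not given in the sources used here. The table had 0 columns of other samples. Of 22206 probe sets, 19572 had 1 symbol, 0 several and 2634 none. Genes were placed in order with RefSeq of GRCm38.p6.

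Differences came from limma 3.58.1 under R 4.3.3: lmFit on the 2 groups, then eBayes. Its two-sided p-values were adjusted over the whole table by Benjamini and Hochberg. Errors of differences are standard errors of that fit, and intervals are 95% before adjustment. Arrays have no read depth, and 3 per group limit the precision. Tested on simulated data for this comparison (22206 probe sets), the fit recovered 6% of changes of 0.5 log2 units, 92% of 1 and 100% of 2, with 12 false among 161 calls. Far fewer probe sets were changed in the simulation than were called in the real data (1720). The adjusted threshold was therefore stricter in the simulation, and these shares do not give the share of real changes recovered.

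The members and lists were chosen with earlier results of these data known. Named genes are every measured member; of each list up to 4 genes with the smallest p and every called one; neighbours in gene order; and the 3 genes nearest to a called member in centred values. Marker lists are given by their sums and counts, with few members named. Mpo, Cd1d1, Irf1, Rfx5, Calr, Canx, Cxcl9, Cxcl10, Gbp2, Psmb9, H2-Aa, H2-Ab1, H2-Eb1, H2-T22, H2-T24, H2-Q1 and H2-Q2 were added after their values were seen where no part of the rule names them. Alternatives were quantile normalization, a common median, a filter on the lowest 30% of probe sets, an intensity trend with a robust prior, ordinary variance, array weights, 1-symbol probe sets, a replicate block, and leaving out arrays.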

Additional observations from a re-analysis of the deposited data

How the results depend on the processing

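The number of probe sets called, 1720, ranged from 1228 to 1465 when 1 array was left out and was 496 with ordinary variance per probe set; it lay within 1.5 times of 1720 in the other alternatives. The number of class I and loading genes called, 1 (H2-M3), was 0 with a common median, with an intensity trend and robust prior, with ordinary variance, with the replicate block and without WT replicate 3 and Y probe sets, and ranged from 0 to 0 when 1 array was left out. The adjusted p of H2-M3 was 0.0850 with a common median, 0.0930 with the trend, 0.155 with ordinary variance and 0.150 without WT replicate 3 and Y probe sets; it was 0.0469 with quantile normalization, 0.0434 with the low filter, 0.0465 with array weights and 0.0453 with 1-symbol probe sets. The cause was not tested. The other 7 genes stayed short of the threshold in each of their 15 alternatives, with the smallest adjusted p for Tap2 (0.0578, quantile normalization). The signs of H2-K1 (-0.20 to 0.13) and Tap1 (-0.13 to 0.09) depended on which array was left out. With ordinary variance the calls of H2-Q4, H2-Q5, H2-T10, Hfe, Mr1, Cd1d2, Psmb10, Ifngr1, Gbp3, Tgtp2, Tmem129, H2-DMa, H2-Oa, H2-DMb2, Elane, Prtn3, Ms4a3, Csf3r and Pecam1 were lost (adjusted p from 0.0507 for Elane to 0.301 for Tmem129), while Gbp7, Usp18, H2-DMb1 and Ctsg passed. A common median ended the calls of H2-T10 (0.0807) and Tmem129 (0.0682), array weights those of H2-T10 (0.0527), Tmem129 (0.0688) and Cd1d2 (0.0608), and the trend those of H2-T10 (0.0550), Cd1d2 (0.0768) and H2-DMb2 (0.0749). Jak2 passed with a common median (0.0448) and array weights (0.0481). Gbp7 passed in all 15. Of 540 list counts recomputed, 482 lay within 1.5 times of the main count and 58 did not. Same-numbered arrays did not deviate together (correlations of -0.061, 0.029 and -0.062 for replicates 1, 2 and 3). No array correlated best with its own number, and the highest value was 0.138, for K313 replicate 1 with WT replicate 3. These correlations cannot show whether same-numbered arrays were prepared together, which the labels do not say. The replicate block in limma gave 1546 calls, with an adjusted p of 0.0984 for H2-M3, 0.0547 for Cd1d2 and 0.0661 for H2-DMb2. No detection calls were used, so levels near 5 or below bound no change.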
